A study of Mus musculus with 25 samples.

Results

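Cytosolic ribosomal proteins build the ribosome of the cytoplasm, and their genes were followed here through male germ cells that carry or lack Ythdc2. The genes were chosen by name. A symbol had to read Rpl or Rps plus a number with at most 1 letter and 1 digit after it, or be Rplp0, Rplp1, Rplp2 or Rpsa, with the Rps6k kinases and the pseudogenes marked -ps left out. This gave 83 of the 14103 genes in the table, namely 43 of the large subunit, 31 of the small subunit, 3 of the P stalk and 6 paralog copies (Rpl3l, Rpl7l1, Rpl10l, Rpl22l1, Rpl39l and Rps27l). No measured value entered that choice. Of the 83, 4 lie on the X chromosome (Rpl10, Rpl36a, Rpl39 and Rps4x).

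The study examined YTHDC2, an RNA-binding helicase required in germ cells for the passage into meiosis, by single-cell RNA-seq of mouse testis, from which 4N cells were sorted at postnatal day 10. There was 1 wild-type (WT) library of 1151 cells, and there were 2 knockout (KO) libraries, called KO A (1522 cells) and KO B (1855 cells). The authors placed the cells in 5 named clusters, numbered here as 1 (Undiff_SGs), 2 (Diff_SGs), 3 (L_Z_SCs), 4 (Diff_L_Z_SGs1) and 5 (Diff_L_Z_SGs2). A 4N content is shared by cycling cells after replication and by cells in meiotic prophase. The KO allele belongs to a line described elsewhere, and the sequence it lacks and its strain are not given here. The study's other mutant lines were made on a C57BL/6 and DBA/2 hybrid background. Titles of the samples say embryo as well as P10, and the labelled age was followed. Neither KO library can be tied to a particular KO sample of the labels, and nothing says that the libraries came from separate animals, so p-values measure only how far these libraries differ, possibly for technical reasons. The labels list bulk samples of other Ythdc2 alleles too, and they were not analysed here.

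Markers set clusters 1 and 3 apart as named, and did so less for cluster 2. Summed markers of undifferentiated spermatogonia stood at 612 to 810 counts per 1000000 (CPM, from unique molecular identifiers or UMIs, each standing for 1 captured RNA molecule) in cluster 1 and at 37.7 to 119 elsewhere, and 12 markers of leptotene and zygotene spermatocytes summed to 6244 CPM in cluster 3, 4122 and 4150 in cluster 5, 2553 to 3030 in cluster 4, 1521 to 2396 in cluster 2 and 817 to 850 in cluster 1. Markers of differentiating spermatogonia summed to 1345 to 1566 CPM in cluster 2 and to more in the later clusters, with 3288 in cluster 3, and in the KO libraries 2947 and 2892 (cluster 4) and 4022 and 3726 (cluster 5). Libraries held 16342955 (WT), 18089957 (KO A) and 25447581 (KO B) UMIs, with no cell barcode shared between them. Ythdc2 itself was at 170 CPM in WT cluster 2 and at 50.4 and 44.2 in the KO libraries there. It was at 266 in WT cluster 3 and at 35.3 and 34.9 in KO cluster 5, whereas in cluster 1 the values were 37.7 (WT), 25.7 (KO A) and 22.8 (KO B). Of the WT cells 427 lay in cluster 3, 24 in cluster 4 and 1 in cluster 5; the KO libraries had 0 cells in cluster 3, with 592 and 441 in cluster 4 and 335 and 510 in cluster 5.

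Each ribosome joins a small subunit, which reads the messenger RNA, to a large subunit, which forms the peptide bond, and the P stalk of the large subunit recruits the translation factors that use GTP. Transcripts of ribosomal proteins commonly begin with a cytosine and a run of pyrimidines, the terminal oligopyrimidine (TOP) start, through which mTOR and LARP1 control their translation and stability together. In spermatocytes the X chromosome is silenced in meiosis, and autosomal copies of some ribosomal protein genes, among them Rpl10l and Rpl39l, are known for their expression in the testis.

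The TOP start was looked for in the RefSeq promoters of build GRCm38.p6. They list 63 of the 83 genes with 250 bases before and 50 after an annotated transcription start. Of several starts, the one nearest the outer end of the gene was taken. It lay 174 bases from that end for Rps12, 31 for Rpl39l and 1462 for Rps27l, and at that end for the other genes printed below. The largest distance among members was 4707 bases (Rpl19). Whether such a start is the main one in these cells was not tested. The first sequences belong to members that stood far lower in cluster 4 than in cluster 5 (Rps12, Rps15a and Rps27 of the small subunit, examples among low members of both subunits) or closer to level between them (Rps21 of the small and Rpl4 of the large subunit). They run from 60 bases before the start to 20 bases from it on, 5′ to 3′. Capitals mark the longest stretch of at least 7 bases of C and T, counted from a C within 10 bases of the start. Of a run that begins further upstream, only the part from the first C inside this window was counted. A marked run may end before the start.
Rps12: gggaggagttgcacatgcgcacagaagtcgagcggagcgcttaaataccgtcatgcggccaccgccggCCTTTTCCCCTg
Rps15a: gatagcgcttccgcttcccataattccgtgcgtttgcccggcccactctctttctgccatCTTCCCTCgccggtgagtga
Rps27: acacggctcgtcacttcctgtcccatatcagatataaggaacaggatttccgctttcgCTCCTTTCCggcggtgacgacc
Rps21: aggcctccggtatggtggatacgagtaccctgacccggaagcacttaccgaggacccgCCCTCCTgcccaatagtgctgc
Rpl4: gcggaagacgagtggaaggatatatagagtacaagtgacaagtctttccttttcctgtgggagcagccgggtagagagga
These windows are chr10:23787190-23787269 (minus strand), chr7:118116128-118116207 (minus strand), chr3:90213629-90213708 (minus strand), chr2:180257319-180257398 (plus strand) and chr9:64173327-64173406 (plus strand). A marked run stood in members of both kinds, with 11 bases in Rps12, 8 in Rps15a, 9 in Rps27 and 7 in Rps21. Rpl4 had none of that length counted from inside the searched stretch. A longer run of C and T in Rpl4 begins upstream of that stretch and ends inside it, before the start, and was therefore not marked.

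The second set shows members whose level differed between clusters, namely the X-linked genes Rps4x and Rpl39 and the autosomal copies Rpl39l, Rpl22l1 and Rps27l, with the same window and the same use of capitals.
Rps4x: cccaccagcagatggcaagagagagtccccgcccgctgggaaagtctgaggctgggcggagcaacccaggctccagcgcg
Rpl39: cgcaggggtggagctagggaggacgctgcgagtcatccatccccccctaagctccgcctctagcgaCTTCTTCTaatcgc
Rpl39l: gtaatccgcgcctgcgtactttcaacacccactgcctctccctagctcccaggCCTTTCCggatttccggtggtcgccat
Rpl22l1: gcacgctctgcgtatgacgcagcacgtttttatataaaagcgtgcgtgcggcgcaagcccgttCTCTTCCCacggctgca
Rps27l: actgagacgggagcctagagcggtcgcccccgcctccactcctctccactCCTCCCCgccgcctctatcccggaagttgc
They lie at chrX:102189372-102189451 (minus strand), chrX:37085203-37085282 (minus strand), chr16:10170168-10170247 (plus strand), chr3:28805448-28805527 (plus strand) and chr9:66946026-66946105 (plus strand). Rps4x held no run of 7 bases, while the parent Rpl39 (8 bases) and its copy Rpl39l (7 bases) both did. The marked runs of Rpl39l and Rps27l end before the annotated start. That of Rps27l is part of a longer run that begins upstream of the searched stretch.

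Among the 63 promoters, 26 (41.3%) held such a run, against 1321 of 10621 (12.4%) promoters of the other measured genes. These counts include runs that lie wholly before the annotated start, outside the annotated transcript. The letters CTTTCC on the sense strand, from 10 bases before to 20 after the start, were found in 9 members (14.3%) and in 131 of the other genes (1.23%); they can overlap the run. CCGGAAG, searched on both strands of the whole promoter, was in 25 members (39.7%) and in 18.1% of the others. GGGCGG was in 60.3% and 65.3%, and TATAAA in 11.1% and 6.67%. These are matches of letters at annotated starts and are given as descriptions.

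Ribosomal protein transcripts made up between 4.77% and 15.5% of all UMIs, depending on cluster and library. In cluster 1 the 83 genes took 15.5% (WT), 12.2% (KO A) and 13.9% (KO B) of UMIs. In cluster 2 the shares were 12.7%, 9.81% and 12.6%. KO A was the low library in both clusters, and KO B was close to WT in cluster 2. WT cluster 3 stood at 13.1%, and KO cluster 5 at 12.0% (KO A) and 12.5% (KO B). Cluster 4 stood apart in every library, with 4.77% and 5.52% in the KO libraries and 5.83% in the 24 WT cells. The binomial 95% intervals (Clopper-Pearson, counting error only) were narrow, for instance 5.73% to 5.92% for the 24 WT cells.

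**Figure D1:**
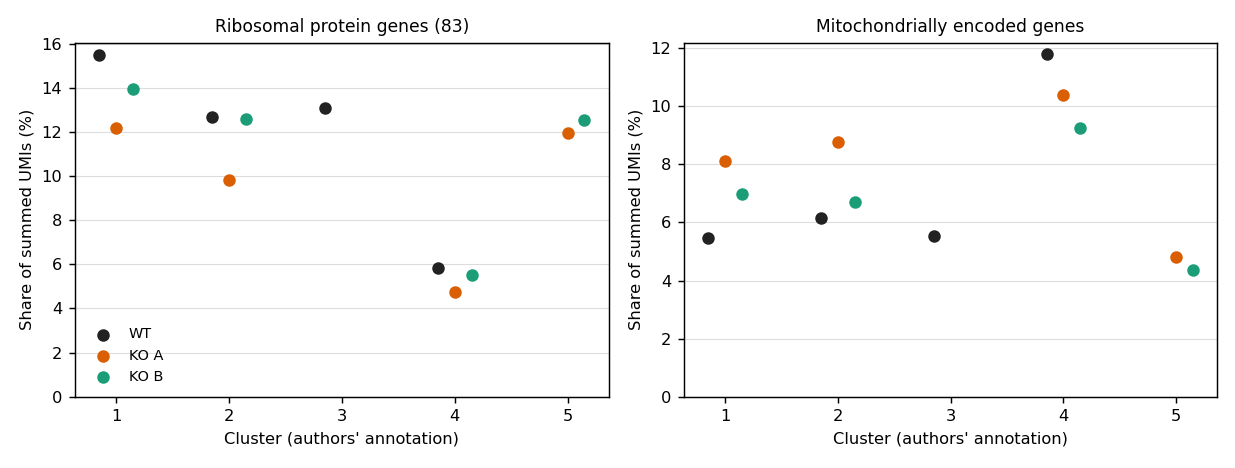
Share of summed UMIs (percent, vertical axes) taken by the 83 ribosomal protein genes (left) and by mitochondrially encoded genes (right) in each of the authors' clusters; each point is 1 library (black WT, orange KO A, green KO B). Cluster 4 has the lowest ribosomal protein shares, 4.77% to 5.83%, and the highest mitochondrial shares, 9.24% to 11.8%.

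The share of mitochondrially encoded transcripts was highest in cluster 4. It was 9.24% to 11.8% in cluster 4, 4.36% and 4.82% in cluster 5 and 5.54% in WT cluster 3, and in cluster 2 it was 6.14% (WT), 8.78% (KO A) and 6.69% (KO B). Cells of cluster 4 also held fewer UMIs, with medians of 9512.5 (WT), 8146.5 (KO A) and 8560 (KO B) against 16097 and 16152.5 in cluster 5. The part of mitochondrial share and depth in the low ribosomal protein level was not tested. Counted over nuclear genes alone, the members took 5.32% and 6.09% of UMIs in KO cluster 4 and 12.6% and 13.1% in KO cluster 5. The 78 mitochondrial ribosomal proteins (Mrpl and Mrps genes), which serve the ribosome of that organelle, took 0.893% and 0.944% of UMIs in KO cluster 4 and 1.03% in both libraries of cluster 5, so their levels differed far less between these clusters.

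Within clusters 1 and 2 single cells spread widely in ribosomal protein share. In cluster 2 each library had a low and a high peak, with no empty range between them. In bins of 1 percentage point, WT had 61 cells from 4%, 10 from 8% and 117 from 13%. KO A had 79 from 4%, 25 from 11% and 41 from 14%, and KO B had 63 from 6%, 36 from 8% and 112 from 14%. The low peak was the larger in KO A, whose median was close to the limit used next. In WT cluster 2 the 10th percentile of the share was 4.60%, the median 13.0% and the 90th percentile 15.5%; in KO A these were 4.65%, 8.12% and 14.1%, and in KO B 5.93%, 12.7% and 15.8%. A limit of 8%, chosen after the distributions were seen, put 24.8% (WT), 49.0% (KO A) and 23.8% (KO B) of the cells of cluster 2 on the low side. In cluster 1 these were 7 of 45, 35 of 66 and 33 of 90 cells. In clusters 3 and 5 they were 0.937% to 1.57%, and in cluster 4 they were 87.5% to 97.0%. Between 3.03% and 20.8% of a group's cells in clusters 1, 2 and 4 lay within 1 percentage point of the limit.

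**Figure D2:**
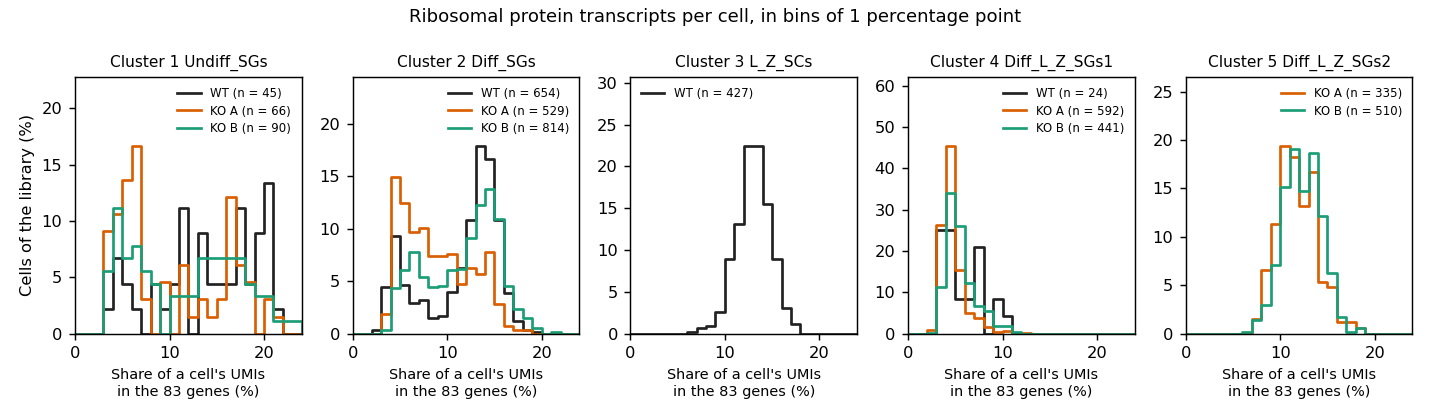
Distribution of the share of a cell's UMIs in the 83 genes (percent, horizontal axes) over the cells of each library (percent of cells, vertical axes, a scale per panel), in bins of 1 percentage point, by cluster; groups under 20 cells and 1 cell of KO B at 38.0% in cluster 1 are not drawn. In cluster 2 each library spreads over a low and a high range without a gap, and the dip between them is deepest in WT. Cluster 1 spreads over both, clusters 3 and 5 lie in the high range and cluster 4 in the low one.

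Cells on the low side differed in other readouts. In WT cluster 2 the low cells had a median mitochondrial share of 11.7%, 7873 UMIs and a Malat1 share of 0.455%, and the other cells had 4.95%, 16957.5 UMIs and 0.248%; Malat1 is a nuclear long noncoding RNA. In KO A the medians were 10.8% and 8.30% for the mitochondrial share and 8712 and 11508.5 for UMIs. In KO B they were 10.1% and 5.88%, and 8703.5 and 13306. The median Malat1 share was 0.390% against 0.282% in KO A and 0.437% against 0.285% in KO B. Low cells thus had higher mitochondrial and Malat1 shares and fewer UMIs in each of the 3 libraries of cluster 2. These are shares of a smaller total and not amounts per cell. Across cells of cluster 2 the share had a Spearman rho with the mitochondrial share of -0.63 in WT (654 cells), -0.37 in KO A (529) and -0.56 in KO B (814); both are shares of the same cell's UMIs. With the share of M-phase transcripts, rho was between -0.03 and 0.15 in the same cells.

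The members were not lowered alike in cluster 4. Over the 83 genes the median ratio of the CPM in cluster 4 to that in cluster 5 was 0.414 in KO A and 0.461 in KO B, with 82 of 83 below 1 in each library. Over all genes at 20 CPM or more, the median ratio was 1.09 and 1.08, and 35.8% and 35.6% were below 1. These clusters were cut from the expression of the same cells, so the ratios are descriptions with no test. Medians were 0.337 and 0.386 for the small subunit, 0.438 and 0.470 for the large subunit, 0.332 and 0.366 for the P stalk and 0.578 and 0.813 for the 6 paralog copies. The 78 mitochondrial ribosomal protein genes had medians of 0.916 and 0.903.

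Rps27, a zinc-finger protein of the small subunit, was at 303 and 363 CPM in cluster 4 of KO A and KO B and at 1762 and 1833 in cluster 5, ratios of 0.172 and 0.198. Rps15a was at 454 and 573 against 2552 and 2693, ratios of 0.178 and 0.213. Rps12 had ratios of 0.241 and 0.277. The large subunit genes Rpl17 (0.182 and 0.201), Rpl9 (0.218 and 0.244) and Rpl32 (0.222 and 0.261) were lower than Rps12, so both subunits had members at the low end. They were singled out, like the next, by this ratio. Rps21 was at 1344 and 1362 in cluster 4 and at 1598 and 1762 in cluster 5, ratios of 0.841 and 0.773. Rpl4, which lines the peptide exit tunnel, was at 809 and 796 against 1043 and 1081. Rps20 was at 2554 and 2660 against 4368 and 4355, ratios of 0.585 and 0.611. Among copies, Rpl7l1, related to the large subunit protein Rpl7, had ratios of 0.881 and 0.906, and Rps27l had 0.626 and 0.743, well above its parent Rps27.

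**Figure D3:**
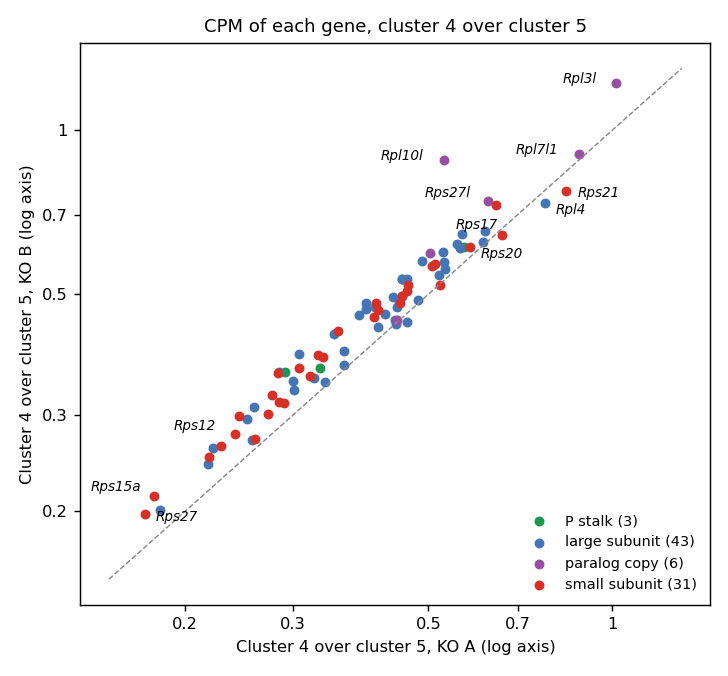
Ratio of the CPM in cluster 4 to that in cluster 5 for each of the 83 genes in KO A (horizontal, log axis) and KO B (vertical, log axis), coloured by group; the dashed line marks equal ratios. Rps27, Rps15a and Rps12 lie toward the low end, among members of both subunits, and Rps21 and Rpl4 near the high end in both libraries, with the copies Rpl3l and Rpl7l1 highest.

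The order of the members repeated between groups of cells. Across the 83 genes the ratio of cluster 4 to cluster 5 in KO A and that in KO B had a Spearman rho of 0.976. In WT cluster 2, the ratio of low cells to the other cells had a rho of 0.889 with the KO A ratio and of 0.901 with the KO B ratio, although no cell or library is shared. The low cells of cluster 2 were picked by the summed share of these same 83 genes, so their ratios are not independent of that choice. Genes are not independent replicates, and depth and mitochondrial share differed in the same direction in all of these ratios.

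In WT most members stood lower in cluster 2 than in cluster 1, by a modest ratio. From cluster 1 to cluster 2 the median ratio over the 83 genes was 0.823, from cluster 2 to cluster 3 it was 1.02, and from cluster 1 to cluster 3 it was 0.858; over all genes at 20 CPM or more these were 1.11, 0.933 and 1.02. From cluster 1 to cluster 2, 66 of the 83 members (79.5%) were lower, against 43.6% of all such genes, and from cluster 1 to cluster 3, 56 (67.5%) were, against 49.2%. From cluster 2 to cluster 3, 38 members were lower and 45 higher. By a 2-fold limit, 5 genes were lower and 2 higher in cluster 2 than in cluster 1, and 11 were lower and 3 higher in cluster 3 than in cluster 1. Among all genes at 20 CPM or more, 15.5% were 2-fold lower in cluster 2 than in cluster 1 and 25.1% in cluster 3, against 6.02% and 13.3% of members. With the mean of count/size factor, the authors' own scaling, the median ratios were 0.724 and 1.18 for the first 2 steps.

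Single members went further. Rps2, of the small subunit, was at 4380 CPM in WT cluster 1, 3321 in cluster 2 and 1539 in cluster 3. Rps3a1, also of the small subunit, was at 3264, 2313 and 1091. Rpsa, a small subunit protein also known as a laminin receptor, was at 3293, 1805 and 1259. These 3 were lowest in cluster 3, as was Rpl4 at 1761, 1167 and 741. Rpl9, of the large subunit, was at 2044, 979 and 1191, lowest in cluster 2. In the other direction Rps27 was at 585, 741 and 1213, Rps28 at 1188, 1503 and 2079 and Rpl36 at 800, 1087 and 1357; all 3 stood highest in cluster 3. Rpl22, a large subunit protein that also binds other RNAs, was at 1077, 1585 and 1801. Rpl41 (1930, 2709 and 2685) and Rpl7a (1247, 1671 and 1359) were higher in cluster 2 than in cluster 1. Among the most abundant members in WT cluster 2, in CPM and not per length, were Rps24 (3649), Rpl13 (3538) and Rps2; the lowest were Rpl10l, Rpl3l, Rps4x, Rpl13a (123) and Rpl39l. Many of these genes have near-identical processed pseudogenes, and how reads shared with them were assigned is unknown here, so the levels of single members are uncertain in that respect.

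Rps4x, the X-linked small subunit gene, had the lowest ratio of cluster 2 to cluster 1 among the 83 members in WT. It was at 841 CPM (95% exact Poisson interval 784 to 902, counting error only) in WT cluster 1, 28.0 (24.8 to 31.6) in cluster 2 and 41.2 (36.0 to 47.0) in cluster 3, which is 30.0-fold lower in cluster 2 than in cluster 1. Across clusters 1, 2, 4 and 5 it was at 440, 47.5, 48.8 and 148 in KO A. KO B had 591, 52.3, 62.2 and 161. The intervals of both KO libraries in cluster 5 lay above that of WT cluster 3. Of 34 cells that held 10 or more UMIs of markers of somatic cells (smooth muscle, stroma and Leydig cells, red blood cells), 33 lay in cluster 1. With these left out, Rps4x in cluster 1 was at 424 (WT), 259 (KO A) and 341 (KO B), which is 15.1-, 5.45- and 6.52-fold above cluster 2.

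The other X-linked members did not share this pattern. Rpl39, a short protein of the exit tunnel, was at 420, 504 and 762 CPM in WT clusters 1, 2 and 3. Rpl10, which joins the large subunit late in its assembly, was at 523, 501 and 590. Rpl36a was at 637, 498 and 548. In KO cluster 5 the values were 752 and 837 for Rpl39, 603 and 595 for Rpl10 and 508 and 580 for Rpl36a, close to WT cluster 3 or on either side of it. Without the cells with somatic UMIs, WT cluster 1 held 237 of Rpl39, 402 of Rpl10 and 608 of Rpl36a.

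**Figure D4:**
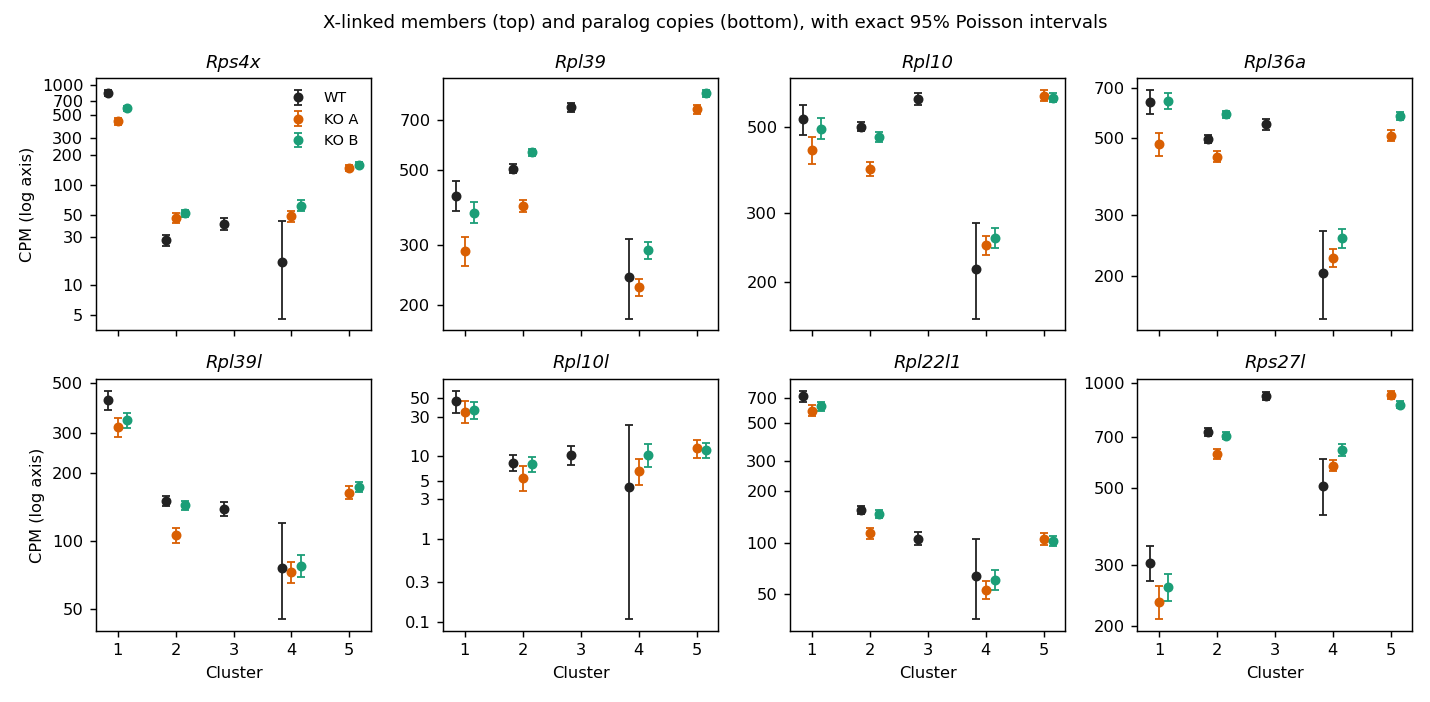
CPM (vertical, log axes that differ between panels) by cluster in each library (black WT, orange KO A, green KO B), for the 4 X-linked members and 4 autosomal paralog copies; bars are exact 95% Poisson intervals. Rps4x is at 841 in WT cluster 1 and at 28.0 in WT cluster 2, the copies Rpl39l, Rpl10l and Rpl22l1 are highest in cluster 1 in all 3 libraries, and Rps27l is lowest there.

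Of the paralog copies, 3 were high in cluster 1 and low afterwards. Rpl22l1, the copy of Rpl22, was at 723, 156 and 106 CPM in WT clusters 1, 2 and 3, opposite in direction to its parent, and at 105 and 102 in KO cluster 5. Rpl39l, the copy of Rpl39, was at 419, 151 and 138 in WT and at 164 and 173 in KO cluster 5. Rpl10l, the copy of Rpl10, was at 46.0, 8.25 and 10.3 in WT and at 12.4 and 11.8 in KO cluster 5. In KO cluster 1 they were at 594 and 629 (Rpl22l1), 318 and 342 (Rpl39l) and 34.5 and 35.5 (Rpl10l), in each case below WT. All 3 stood higher in WT cluster 1 without the cells with somatic UMIs, at 762, 487 and 53.8. Rps27l, a copy of Rps27 that p53 is known to induce, went the other way, from 303 to 722 and 918 in WT; KO cluster 5 held 924 and 866. Rpl3l, best known from muscle, was at 9.49 and 13.4 in WT clusters 2 and 3; its 1.05 in WT cluster 1 rests on 1 UMI (interval 0.0265 to 5.83), and KO cluster 1 held 5.13 and 4.57, while its parent Rpl3 was at 1314, 1202 and 1350. Rpl7l1 was at 135, 165 and 105, and its parent Rpl7 at 1107, 681 and 828.

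KO and WT were compared by limma on log2 of the mean count/size factor per library plus 0.01, over all genes with a mean of at least 0.05, with Benjamini-Hochberg adjustment and a threshold of 0.05. The spread comes from the 2 KO libraries and from the moderation across genes, since WT is 1 library. In clusters 3, 4 and 5 and in the tests of the difference between KO effects, the moderation was complete (infinite prior degrees of freedom). There each SE was pooled over genes of like level, and a gene's own spread between KO A and KO B had no weight. Very small p-values in these fits rest on that pooling. An exact test of 1 library against 2 could not give a p below 0.333.

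In cluster 2, which both genotypes fill with 529 or more cells per library, 1 of the 83 members was called higher in KO and 0 lower, where 2.87% and 1.43% of the 9435 genes tested were called in these directions. At an unadjusted p under 0.05 there were 4 of the 83 members, against 2283 of the 9435 genes tested. The alternatives edgeR and DESeq2 each called 2 members lower, and their share of all genes called is not given here. The member called higher was Rps4x, with a mean count/size factor of 0.289 (WT), 0.427 (KO A) and 0.528 (KO B). Both KO libraries lay above WT, by a log2 difference of 0.70 ± 0.16 (SE; limma adjusted p = 0.0393). The adjusted p was 0.0578 with a pseudocount of 1, 0.0678 without doublets and 0.216 without the filter on low means. The members' median log2 difference was -0.22, against 0.03 over all genes tested. It was -0.46 for KO A alone and -0.04 for KO B alone, so most of it came from KO A. WT lay above both KO libraries for 46 of the 83 members, against 36.8% of all genes, and below both for 4, against 44.2%.

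The members with the lowest KO difference in cluster 2 were not called. The P stalk gene Rplp0 was at 20.3 (WT), 11.2 (KO A) and 15.2 (KO B), a log2 difference of -0.64 ± 0.25 (limma adjusted p = 0.148). Rplp1 and Rplp2, its partners, were at 26.1, 16.3 and 25.4 and at 17.2, 11.3 and 17.4 in WT, KO A and KO B. Rpl15, of the large subunit, was at 17.1, 9.02 and 13.5. KO A was the lowest library in each of these, and KO B lay between it and WT or at about the level of WT. Rps29, a zinc-finger protein of the small subunit, was the highest after Rps4x, at 10.1 (WT), 12.0 (KO A) and 15.7 (KO B), and was not called (limma adjusted p = 0.246).

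In cluster 1, with 45, 66 and 90 cells, 3 of 82 members tested were called lower and 0 higher, against 2.20% and 0.644% of 11180 genes. With edgeR and DESeq2, 0 were called higher too. An unadjusted p under 0.05 was found for 46 of the 82 members, against 1807 of the 11180 genes. The log2 difference was below 0 for 81 of the 82, against 5825 of the 11180 genes. The median log2 difference of the members was -0.41 (all genes -0.02), and WT lay above both KO libraries for 74 of the 82, against 39.1% of all genes, and below both for 1, against 35.9%. The median was -0.57 for KO A alone and -0.25 for KO B alone. Rps4x was at 15.2 (WT), 6.00 (KO A) and 9.13 (KO B) and was called lower, by -1.04 ± 0.19 (SE; limma adjusted p = 0.00228). Rpl21, of the large subunit, was at 36.0, 18.5 and 23.0, a difference of -0.80 ± 0.19 (limma adjusted p = 0.0212). Rpl39 was at 7.60, 3.94 and 5.61, a difference of -0.69 ± 0.18 (limma adjusted p = 0.0324). WT lay above both KO libraries in all 3.

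These calls moved with the cells kept. Smooth muscle markers summed to 2295 CPM in WT cluster 1 and to 1023 and 1300 in the KO libraries, with all 6 detected in each, and stromal and Leydig markers to 700, 529 and 526. Without the cells with somatic UMIs (35, 56 and 77 left), 37 members were called lower, against 2.48% of genes, among them the 3 above, at a median of -0.46. With cells of 8% or more mitochondrial UMIs left out, an alternative chosen after the data were seen, 0 were called and the median was -0.11. The mitochondrial share of cluster 1 was 5.47% (WT), 8.13% (KO A) and 6.99% (KO B); its part in the difference was not tested.

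Clusters 3, 4 and 5 were compared as 1 class (452, 927 and 951 cells). In it, 69 of the 83 members were called lower in KO and 2 higher, against 29.1% and 37.4% of 9299 genes, with a member median of -0.74 (all genes 0.08). By group, 39 of 43 large subunit, 24 of 31 small subunit, 3 of 3 P stalk genes and 3 of 6 copies were lower. Rps12 was at 21.6 (WT), 6.19 (KO A) and 8.34 (KO B), a log2 difference of -1.58 ± 0.15 (limma adjusted p = 3.48e-25). Rps7, of the small subunit, was at 31.1, 10.7 and 13.8, a difference of -1.35 ± 0.18. Rpl12, at the base of the P stalk, was at 21.3, 8.02 and 10.4, and Rpl15 at 22.7, 8.39 and 11.3. Rplp0 was at 23.3, 8.88 and 11.6, and its partner Rplp1 at 34.2, 13.4 and 17.2. WT lay above both KO libraries for 79 of the 83, against 42.0% of all genes. The 2 higher members were Rps4x (0.471, 0.878 and 1.20; 1.11 ± 0.11) and Rps3a1 (12.0, 14.8 and 19.1; 0.48 ± 0.17, limma adjusted p = 0.00974).

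Cluster 4 holds 592 of 927 and 441 of 951 cells of this class in KO and 24 of 452 in WT, and the ribosomal protein share of cluster 4 was low in WT as well. With cluster 4 left out, an alternative chosen after the data were seen, KO cluster 5 stood against WT cluster 3, and 42 members were called lower and 6 higher, against 28.3% and 35.3% of 9253 genes; 41 of the 42 were among the 69. The member median was -0.17 (all genes 0.08), and the difference in the summed share of UMIs went from -3.42 to -0.879 percentage points. The 6 called higher were Rps4x, Rps3a1, Rps29, Rps27, Rpl4 and Rps15. Rps3a1 was at 12.2 in WT and at 25.9 and 26.5 in KO, a log2 difference of 1.10 ± 0.08 (limma adjusted p = 2.87e-14). Rps4x was at 0.489, 1.59 and 1.70, a difference of 1.73 ± 0.10. Rps29 was at 13.8, 19.5 and 20.6, and Rps27 at 14.3, 19.2 and 19.6. Rps12 remained the lowest, at 22.5, 12.3 and 12.7, a difference of -0.85 ± 0.08. KO A and KO B lay close together in each of these. WT and KO cells are here in different clusters, which were cut from expression, so stage and genotype cannot be told apart.

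**Figure D5:**
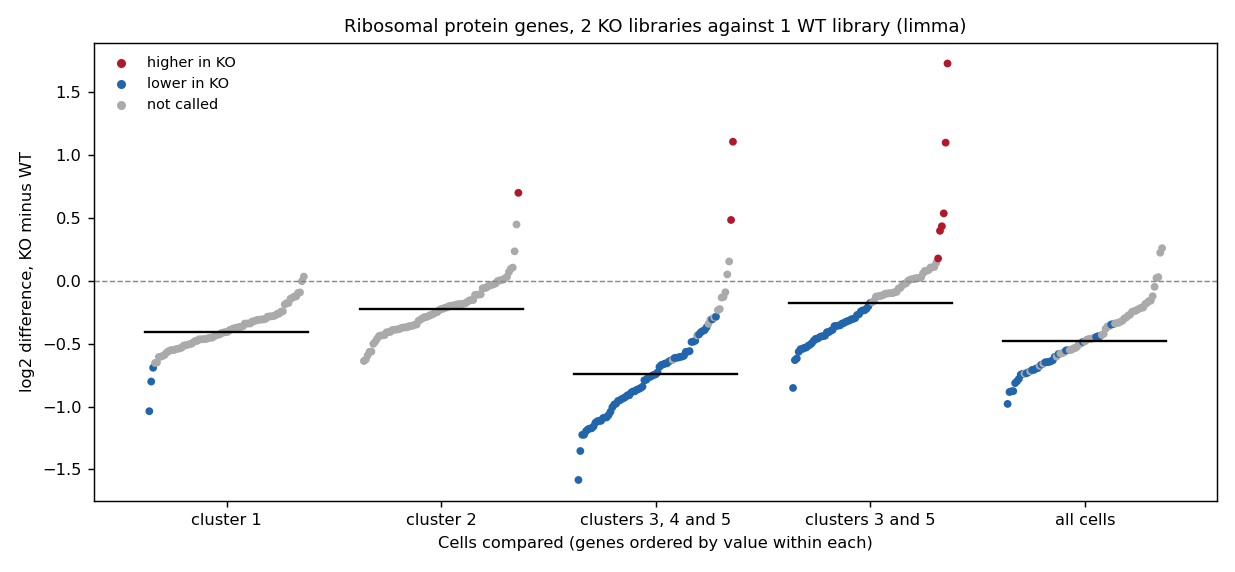
log2 difference between KO and WT (vertical axis) of each ribosomal protein gene in 5 sets of cells, ordered by value within a set; blue points were called lower and red points higher in KO by limma (adjusted p under 0.05), grey points were not called, and black bars are medians; clusters 3 and 5 are the same class with cluster 4 left out. The median is -0.74 in clusters 3, 4 and 5 and -0.17 with cluster 4 left out.

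Over all cells, 31 of 83 members were called lower in KO and 0 higher, against 14.8% and 18.3% of 9637 genes. An unadjusted p under 0.05 was found for 50 of the 83, against 4192 of the 9637 genes. In the higher direction, CPM scaling in limma called 2 and edgeR called 1, and their share of all genes called is not given here. The median was -0.48 (all genes 0.02), with -0.70 (KO A alone) and -0.27 (KO B alone). WT lay above both KO libraries for 75 members, against 40.4% of genes. The lowest were Rps12 (17.0 in WT, with KO values of 7.03 and 10.6; -0.98 ± 0.21, limma adjusted p = 0.00102), Rplp0, Rpl15, Rps7 and Rpl12. Without cluster 4, 8 were called lower, all of them among the 31, and 2 higher, against 18.9% and 24.4% of genes. These totals mix the cluster make-up of each library with levels inside clusters.

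As an alternative chosen after the data were seen, each value was taken relative to the summed members of its library. This sets the members' total equal in all libraries, so a difference shared by the members is removed by the scaling itself. Only departures of single members from the rest remain. Then 4 members were called higher and 1 lower in clusters 3, 4 and 5 and 0 in either direction in the other 3 comparisons. The share of all genes called under this scaling is not given here. The scaling also mattered: CPM scaling moved the median of all genes in clusters 3, 4 and 5 from 0.08 to 0.23. Relative to that median, the members stood at -0.82 with size factors and at -0.61 with CPM or TMM factors. With CPM and TMM factors, 51 and 65 members were called lower. The share of all genes called under these scalings is not given here either.

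The difference between KO effects in 2 classes was tested by itself. Against cluster 1, the KO effect in cluster 2 was higher for 9 of 82 members and lower for 0, where 3.61% and 2.57% of 9098 genes were called. Rps4x led, with a difference of 1.74 ± 0.17 (limma adjusted p = 5.37e-20), being lower in KO in cluster 1 and higher in cluster 2. Against cluster 2, the KO effect in clusters 3, 4 and 5 was lower for 68 of 83 members and higher for 2, against 22.2% and 31.0% of 8911 genes. The classes share no cells and come from the same 3 libraries.

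Other genes of ribosome production were read from lists that were chosen with earlier results of these data known. In clusters 3, 4 and 5, 13 of 19 other transcripts with a TOP start were lower in KO and 1 higher, at a median of -0.43, where 29.1% of all genes were called lower and 37.4% higher, at a median of 0.08. They include Rack1, a scaffold on the small subunit (11.2 in WT, 5.00 and 6.04 in KO), the elongation factor subunit Eef1b2 (7.29, 3.48 and 4.08) and the initiation factor subunit Eif3e (4.15, 2.10 and 2.40), while the splicing factor Hnrnpa1 was higher (1.72, 3.22 and 3.42). Without cluster 4 these counts were 8 and 6, at a median of -0.01, against 28.3% and 35.3% of all genes. For RNA polymerase I, which transcribes ribosomal RNA, 9 of 14 genes were higher and 1 lower, against the same 37.4% and 29.1% of all genes; without cluster 4 the counts were 6 and 1, and the 6 of 14 higher lay near the 35.3% of all genes. Its subunit Polr1c was at 0.280 in WT and at 0.981 and 1.07 in KO, a log2 difference of 1.83 ± 0.11 (1.88 without cluster 4).

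Of 47 ribosome assembly factors 13 were higher and 16 lower (13 and 18 without cluster 4), which is near the shares of all genes (37.4% and 29.1%). Ltv1, which serves small subunit maturation, was at 4.36 in WT and at 1.66 and 1.51 in KO, and Nop10, of the particles that guide RNA pseudouridylation, was at 2.54, 0.872 and 1.02. The nucleolar protein Ncl was at 26.6, 11.8 and 13.0, and Mybbp1a, a nucleolar protein too, was at 0.400, 0.796 and 0.811. Of 14 regulators of TOP transcripts, 8 were higher and 2 lower, against 37.4% and 29.1% of all genes (7 and 3 without cluster 4, against 35.3% and 28.3%). Eif4ebp1, a translation repressor that mTOR controls, was at 0.390 in WT and at 1.62 and 1.63 in KO (2.03 ± 0.10), and Mycl, a relative of Myc, was at 0.104, 0.343 and 0.314. Of 7 chaperones and p53 links, 3 were higher and 0 lower, the first near the 37.4% of all genes. In cluster 2, 2 of the 47 assembly factors were called lower, Nop10 and Nmd3 (an export adaptor of the large subunit). Of 19 other TOP transcripts tested there, 1 was called lower, Eif3e (2.89 in WT, 1.83 and 2.12 in KO, limma adjusted p = 0.0384). Among all genes tested in cluster 2, 1.43% were called lower.

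The authors' gene table also gives each gene a U-motif score, whose scale is not stated. The members' median was 0.018 and that of all genes 0.011, with 19 members (22.9%) and 7.08% of all genes at 0.03 or more, and with 17 members at 0. The highest members were Rpl30 (0.088), Rps10 (0.069) and Rpl27 (0.067), all parts of the ribosome proper; Rpl35 and Rpl10 were among those at 0. Across the 83 members the score and the log2 ratio of cluster 4 to cluster 5 had a Spearman rho of 0.06. In KO cluster 4 and cluster 5, Rpl30 was at 827 and 1591 CPM in KO A, and Rps10 at 453 and 1660, so the high scorers did not move alike.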

How the data were processed

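RNA of single 4N cells was counted by unique molecular identifiers (UMIs). Cell Ranger 3.0.2 and Scanpy are named in the submitters' processing notes, with the mouse build mm10. For 4528 cells and 14103 genes, the deposited values are the natural log of 1 plus the UMI count divided by a size factor of the cell, by the authors; the factor is a score near 1 whose estimation is not stated. Whole counts were recovered for 100% of values (tolerance 0.001), and they hold 99.9% of the UMIs in the deposited count per cell. The deposited fraction of mitochondrial UMIs, cluster names and U-motif score were used as given.

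Counts were summed per library and cluster, since cells are not replicates, and scaled to 1000000 (CPM). UMIs of different genes were not divided by length. KO and WT were compared by limma 3.58.1 (R 4.3.3, trend and moderated variance) on log2 of the mean count/size factor plus 0.01, for genes with a mean of at least 0.05, with Benjamini-Hochberg adjustment over all genes tested. The differences between KO effects came from the same kind of fit. As alternatives the summed counts went into edgeR 4.0.16 and into DESeq2 1.42.0, besides other pseudocounts, scalings and filters. Scanpy 1.11.5 (Scrublet) called 6, 5 and 11 doublets in WT, KO A and KO B; they were kept, and leaving them out was an alternative. On simulated counts of cluster 2 (9435 genes), 90% of 2-fold and 86% of 0.5-fold changes were recovered, and 0.173% of unchanged genes were called. Genes were drawn there independently, with the same dispersion (0.01) and no shift shared by the genes of a library. KO A and KO B did differ jointly over the members, so these rates need not hold for the data. Total UMIs per library were 16342955 to 25447581, and intervals cover counting error only.

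The members are all genes that meet the naming rule. Genes are named by the groups X-linked, paralog copy and P stalk, by the highest and lowest values in a comparison, or after their values were seen. The members, lists and tests were chosen with earlier results of these data known.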

Additional observations from a re-analysis of the deposited data

Results flagged for a closer look

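The KO effect differed between classes of cells by the test of the difference itself (limma, Benjamini-Hochberg adjusted). Between clusters 2 and 1, 9 members had a higher KO effect in cluster 2. Among the X-linked members the log2 difference was 1.74 for Rps4x (adjusted p = 5.37e-20), 0.49 for Rpl39 (adjusted p = 0.0143) and 0.41 for Rpl36a (adjusted p = 0.0487). The levels of Rps4x and Rpl39 in cluster 1 were lower without the cells with somatic UMIs, in each library.

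Between clusters 3, 4 and 5 and cluster 2, 68 members had a lower KO effect in the later class and 2 a higher one. The log2 differences were -0.56 for Rplp0, -0.81 for Rplp1 and -0.55 for Rplp2 of the P stalk. They were -0.55 for Rpl39, -0.33 for Rpl10 and -0.67 for Rpl36a on the X chromosome, against 0.41 for Rps4x. For the copy Rps27l the difference was -0.29. Cluster 4, with its low ribosomal protein share, holds 24 of the 452 WT cells of this class, and 592 of 927 and 441 of 951 of those of the KO libraries.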

How the results depend on the processing

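WT is 1 library, so its own spread is unknown, and KO A was the lower KO library. No paired analysis was possible because WT is a single library and neither KO library can be tied to a numbered sample, and the numbered bulk samples were not analysed here. For named genes, 212 of 251 values kept their direction and side of the threshold, 39 were weaker and 0 reversed. In cluster 2 the 1 member called higher became 0 with a pseudocount of 1, without the filter, with DESeq2, without doublets and relative to the summed members; the 0 called lower became 2 with TMM factors in limma, edgeR (TMM or RLE) and DESeq2 and 3 with cells under 8% mitochondrial UMIs. In cluster 1 the 3 called lower became 7 with a pseudocount of 1, 8 without doublets, 37 without cells with somatic UMIs, 1 with CPM and with edgeR (TMM or RLE), and 0 without the filter, with DESeq2, with equal cells, under 8% mitochondrial UMIs and relative to the summed members. In clusters 3, 4 and 5 the 2 called higher became 1 without the filter, 5 under 8% mitochondrial UMIs, 6 without cluster 4 and 4 relative to the summed members, and the 69 called lower became 42 without cluster 4 and 1 relative to the summed members. Over all cells the 0 called higher became 2 with CPM, under 8% mitochondrial UMIs and without cluster 4, and 1 with TMM factors in limma, edgeR (TMM or RLE) and without cells with somatic UMIs; the 31 called lower became 17 with CPM, 20 with edgeR (TMM) and DESeq2, 8 without cluster 4 and 0 relative to the summed members. The median log2 difference of members went to -0.11 in cluster 1 under 8% mitochondrial UMIs, and in clusters 3, 4 and 5 to -0.38 with CPM, -0.33 under 8% mitochondrial UMIs and -0.17 without cluster 4. The KO minus WT share of UMIs, in percentage points, was -2.45 in cluster 1, and -5.33 as the median over cells, -0.123 without members at 1000 CPM or more and -0.421 under 8% mitochondrial UMIs. It was -3.42 in clusters 3, 4 and 5, and -5.45, -0.132 and -1.64 in the same order, with -0.879 without cluster 4. Over all cells it was -2.48, with -4.19 as the median over cells and -0.0764 without members at 1000 CPM or more. The WT median ratios went from 0.823 to 0.724 (cluster 2 to 1) and from 1.02 to 1.18 (cluster 3 to 2) with the mean of count/size factor. Leaving out a KO library gave medians of -0.46 to -0.04 in cluster 2, -0.57 to -0.25 in cluster 1, -0.93 to -0.55 in clusters 3, 4 and 5 and -0.70 to -0.27 over all cells, and share differences of -2.86 to -0.0996, -3.35 to -1.56, -4.30 to -2.54 and -3.65 to -1.32. The cause of these changes was not tested. For most of these alternatives the share of all genes called is not given. Their counts of members therefore stand without that background. The limits under 8% mitochondrial UMIs, without cluster 4 and relative to the summed members were chosen after seeing the data. The last of these removes a difference shared by the members by its own scaling, so its low counts say nothing about that difference.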

Other observations

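The mitochondrial ribosomal protein genes, tested in the same fits, gave 0 higher and 4 lower of 77 in cluster 2 (median log2 difference -0.18), against 2.87% and 1.43% of all genes. They gave 18 higher and 28 lower in clusters 3, 4 and 5 (median -0.08), where 37.4% and 29.1% of all genes were called in these directions and 69 of 83 cytosolic members were called lower. Over all cells they gave 3 higher and 20 lower of 77 (median -0.13), against 18.3% and 14.8% of all genes. In cluster 1 none of them passed the threshold, with a median of -0.11.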
